A study of Arabidopsis thaliana with 8 samples.

Results

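The 7 genes described here encode enzymes that make scents of Arabidopsis leaves and flowers: the terpene synthases *TPS02*, *TPS03*, *TPS04*, *TPS10* and *TPS21*, the acyltransferase *CHAT* and the hydroperoxide lyase *HPL1*. They were taken by gene identifier from the 27207 genes of the deposited RNA-seq table, and they were chosen on their measured levels and NaCl and genotype differences in these same libraries, seen in an earlier account. Those values are therefore given as a description. Where a count of the 7 that passed a fit over all genes is printed, it stands beside the share of all genes and nothing is read from it. Of the 7, 5 had at least 1 fragment in some library and 4 (*TPS03*, *TPS04*, *CHAT* and *HPL1*) reached a mean level of 1, the minimum at which genes were modelled.

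The study asked how the transcription factor gene *IDD4* acts in salt stress. Seedlings of Arabidopsis thaliana were wild type Col-0 (WT) or the *idd4* mutant, a single T-DNA insertion line in the same background with the insertion in the *IDD4* open reading frame. At 5 days they were moved to half-strength medium without NaCl (mock) or with 100 mM NaCl, and RNA of whole seedlings was sequenced at 14 days. The 4 groups are WT mock, *idd4* mock, WT NaCl and *idd4* NaCl, each with 2 libraries, stated to be biological replicates and called replicate 1 and replicate 2. The paper of the study states more biological replicates than the 2 per group in the data used here. No source says whether the replicates came from separate plates or days, so that the errors given here measure the spread between these libraries only. Levels are scaled fragment counts, that is fragments per gene times 1 factor per library, from 5882615 fragments (*idd4* NaCl replicate 1) to 13557480 (*idd4* NaCl replicate 2). The *IDD4* transcript itself was higher in the libraries labelled *idd4*, at 476.8 and 435.8 without NaCl and 602.7 and 527.5 under NaCl, than in WT, at 273.9 and 360.1 without NaCl and 414.2 and 427.8 under NaCl. A transcript count over the whole gene does not show whether an insertion disrupts the protein, and *idd4* below means the libraries so labelled.

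Terpene synthases turn prenyl diphosphates from the plastid MEP pathway or the cytosolic mevalonate pathway into volatile terpenes. *TPS03* makes acyclic terpenes such as ocimene and farnesene, *TPS02* is its tandem copy, *TPS10* makes mainly myrcene and ocimene, and *TPS21* makes the (E)-beta-caryophyllene of flowers. *TPS04* makes geranyllinalool, which the cytochrome P450 *CYP82G1* cleaves to the homoterpene TMTT, a volatile released by leaves under herbivore attack. Green leaf volatiles are the smell of cut leaves: lipoxygenases oxidise linolenate, *HPL1* splits the hydroperoxide into a hexenal, a reductase makes hexenol, and *CHAT* acetylates it to hexenyl acetate. The allene oxide synthase *AOS* draws on the same hydroperoxides for jasmonate. According to the RefSeq notes, the Col-0 alleles of *TPS02* and *HPL1* carry small frame-changing insertions or deletions and encode no functional enzyme, so that their transcripts are not a measure of product.

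The promoters of the 4 genes with modelled levels are shown because these genes went different ways under NaCl. The 250 bases before each annotated start are from RefSeq, TAIR10.1, written 5′ to 3′ on the strand of the gene. Capitals mark CACATG, a 6-letter site that MYC-type factors are known to bind, and TTTGTC, a 6-letter core known from the maize IDD factor ID1, each searched on both strands so that a match may read CATGTG or GACAAA. The paper of the study gives another core for ID1 motifs, AGACAA, which was not searched. The promoter of *TPS03* lies at chr4:9407361-9407610 (plus strand), that of *TPS04* at chr1:22523385-22523634 (plus), that of *CHAT* at chr3:829927-830176 (minus) and that of *HPL1* at chr4:8835118-8835367 (plus).
TPS03: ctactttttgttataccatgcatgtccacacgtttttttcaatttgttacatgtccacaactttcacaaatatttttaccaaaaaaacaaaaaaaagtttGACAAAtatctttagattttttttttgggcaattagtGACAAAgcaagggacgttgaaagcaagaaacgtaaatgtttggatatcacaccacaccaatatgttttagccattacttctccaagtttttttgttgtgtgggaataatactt
TPS04: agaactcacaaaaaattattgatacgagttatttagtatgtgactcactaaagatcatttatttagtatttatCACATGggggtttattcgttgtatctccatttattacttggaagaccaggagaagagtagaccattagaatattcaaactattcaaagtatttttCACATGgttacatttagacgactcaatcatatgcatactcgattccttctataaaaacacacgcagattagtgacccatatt
CHAT: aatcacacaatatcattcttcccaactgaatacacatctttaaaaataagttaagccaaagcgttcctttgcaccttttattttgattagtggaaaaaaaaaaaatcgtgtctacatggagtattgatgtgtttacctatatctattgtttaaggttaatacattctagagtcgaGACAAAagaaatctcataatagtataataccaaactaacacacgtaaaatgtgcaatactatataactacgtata
HPL1: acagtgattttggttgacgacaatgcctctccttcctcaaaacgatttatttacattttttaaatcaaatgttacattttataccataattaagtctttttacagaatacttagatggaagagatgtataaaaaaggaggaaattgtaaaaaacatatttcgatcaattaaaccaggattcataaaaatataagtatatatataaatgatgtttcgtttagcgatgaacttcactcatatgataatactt

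The *TPS04* promoter held CACATG at positions -177 and -82, counted from the start, and no TTTGTC. The *TPS03* promoter held TTTGTC on the opposite strand at -150 and -113 and no CACATG. *CHAT* had a single TTTGTC at -75, also on the opposite strand, and *HPL1* had neither motif. Read with the base before it, the *CHAT* match holds the AGACAA given by the paper, and the *TPS03* matches do not. Among 27443 promoters of the same length, 11.1% held CACATG at least once and 1.29% at least 2 times, and 24.1% held TTTGTC at least once and 3.57% at least 2 times. The perfect G-box CACGTG was in 6.49% of promoters and in 0 of the 7. Over all 7 genes, 3 held CACATG and 3 held TTTGTC, with *TPS10* holding both. These matches describe letters in a short window and show no binding.

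*TPS03* (AT4G16740, chromosome 4, 9407611 to 9411140, plus strand, 5 exons) was the one terpene synthase of the 7 with a clear level without NaCl. It stood at 230.1 and 368.0 in WT mock and at 296.4 and 368.6 in *idd4* mock. Under NaCl it stood at 5.00 and 1.09 in WT and at 10.8 and 10.1 in *idd4*. All 4 NaCl libraries lay far below all 4 mock libraries, and in RNA of whole seedlings fewer cells of a type and less RNA per cell cannot be told apart. The mean was 98.2-fold lower under NaCl in WT and 31.9-fold lower in *idd4*. On the log2(level + 1) scale the difference between NaCl and mock was -6.37 (SE 0.50, n = 2 libraries against 2) in WT and -4.86 (SE 0.50) in *idd4*. Each SE comes from 1 spread estimate per gene shared by all 4 groups, and does not measure the spread of the compared libraries alone. Counting error is wide at the low end, since the WT NaCl libraries held 5 fragments and 1 fragment and the *idd4* NaCl libraries 6 and 13. Pooled over libraries, the ratio of mock to NaCl was 96.6 in WT, with an exact 95% counting interval of 44.1 to 264.2, and 32.6 in *idd4*, with an interval of 20.7 to 54.4. These intervals cover counting error only.

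The residual *TPS03* level under NaCl was higher in *idd4* than in WT, in both *idd4* libraries against both WT libraries. The difference was 1.69 (SE 0.50) on the log2 scale and rests on 19 fragments against 6. Across all 21820 modelled genes, 9.32% had both *idd4* libraries above both WT libraries under NaCl. Without WT NaCl replicate 1 the difference was 2.45, and without WT NaCl replicate 2 it was 0.93. Without NaCl the WT and *idd4* values of *TPS03* overlapped, with a difference of 0.18 (SE 0.50).

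*TPS04* (AT1G61120, chromosome 1, 22523635 to 22528836, plus strand, 12 exons) went the other way and was nearly confined to the NaCl libraries. Without NaCl it stood at 0 and 1.99 in WT, the latter being 2 fragments, and at 0 in both *idd4* libraries. Under NaCl it stood at 397.2 and 22.8 in WT and at 357.0 and 10.9 in *idd4*. All 4 NaCl libraries lay above all 4 mock libraries, but in each genotype replicate 1 was far above replicate 2, by 17.4-fold in WT and 32.9-fold in *idd4*. The log2 difference was 5.82 (SE 1.61) in WT, or 3.78 without replicate 1, and 6.03 (SE 1.61) in *idd4*, or 3.57 without replicate 1. The value in *idd4* depends on the added 1, since both mock libraries were at 0. Against 3 fragments in each mock library, a floor set here for a count of 0, the *idd4* NaCl mean was 69.7-fold higher, replicate 1 135-fold and replicate 2 4.12-fold. These ratios leave out the counting error of the NaCl libraries and are not strict lower bounds. In WT the pooled ratio of NaCl to mock was 211, with a 95% counting interval of 58.1 to 1748. That interval covers counting error only and not the split between replicates, since 397 of the 418 NaCl fragments were from replicate 1. WT and *idd4* overlapped under NaCl, with a log2 difference of -0.58 (SE 1.61).

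**Figure D1:**
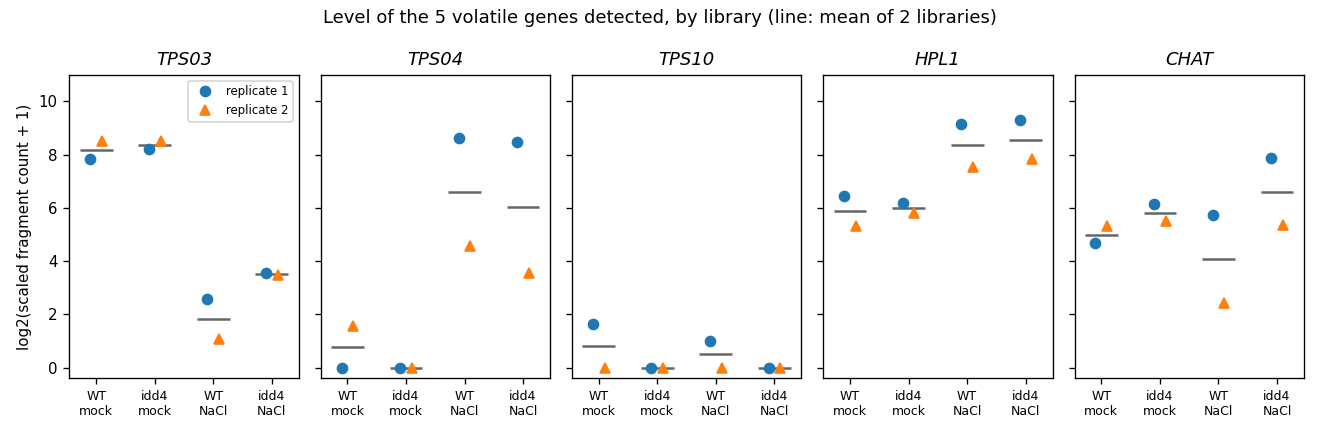
Level of *TPS03*, *TPS04*, *TPS10*, *HPL1* and *CHAT* in each library, as log2(scaled fragment count + 1). Circles are replicate 1, triangles replicate 2 and lines the mean of both libraries of a group. *TPS03* lies between 230.1 and 368.6 scaled fragments without NaCl and at 10.8 or less with it, *TPS04* and *HPL1* are higher in the NaCl libraries, and the NaCl libraries of *CHAT* lie on both sides of its mock libraries in each genotype.

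*CYP82G1* (AT3G25180), which acts on the product of *TPS04*, was at 0 and 0 in WT mock and 0.96 and 0 in *idd4* mock. Under NaCl it stood at 84.0 and 0 in WT and at 113.0 and 12.4 in *idd4*. As for *TPS04*, replicate 1 carried most of the signal, and WT NaCl replicate 2 held no fragment. *CYP82G1* did not pass the test in either genotype, with log2 differences of 3.21 in WT (adjusted p = 0.338, limma with Benjamini-Hochberg adjustment over all genes) and 4.80 in *idd4* (adjusted p = 0.173, limma).

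The other 3 terpene synthases were at or near 0 throughout. *TPS02* (AT4G16730) and *TPS21* (AT5G23960) had 0 fragments in all 8 libraries. The floor of 3 fragments set here for a count of 0 equals 2.33 to 5.38 scaled fragments depending on the library. *TPS10* (AT2G24210) stood at 2.14 in WT mock replicate 1, the equivalent of 2 fragments, at 1.00 in WT NaCl replicate 1 and at 0 in the other 6 libraries. No comparison of *TPS10* was possible at this depth. *TPS02* lies 1474 bases before *TPS03* on the same strand. Their transcripts are 69.9% identical over 1892 aligned bases, with no shared run longer than 20 bases. The counts of *TPS03* and the 0 of *TPS02* therefore belong to genes whose transcripts differ at many positions along the alignment. Of the flower identity genes used as markers, *AP1* was at 0 in all libraries and the list of 8 summed to between 14.0 and 35.9 in every library, and their part in the 0 of *TPS21* was not tested.

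*HPL1* (AT4G15440, chromosome 4, 8835368 to 8838676, plus strand, 2 exons) was higher under NaCl in every library. It stood at 85.6 and 38.8 in WT mock, at 72.0 and 54.4 in *idd4* mock, at 562.3 and 186.8 in WT NaCl and at 624.3 and 225.7 in *idd4* NaCl. The 4 NaCl libraries did not overlap the 4 mock libraries. The mean was 6.02-fold higher in WT and 6.73-fold higher in *idd4*, with log2 differences of 2.47 and 2.57 (SE 0.61 each). Without replicate 1 of the NaCl group they were 1.68 and 1.83. Replicate 1 was 3.01-fold above replicate 2 in WT NaCl and 2.77-fold in *idd4* NaCl. WT and *idd4* overlapped with and without NaCl, with log2 differences of 0.11 without NaCl and 0.21 under NaCl (SE 0.61).

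*CHAT* (AT3G03480, chromosome 3, 828235 to 829926, minus strand, 2 exons) gave no consistent order between NaCl and mock. It stood at 24.6 and 38.8 in WT mock and at 52.0 and 4.34 in WT NaCl. In *idd4* it stood at 69.1 and 44.0 without NaCl and at 235.0 and 39.6 under NaCl. The NaCl and mock libraries overlapped in both genotypes, with log2 differences of -0.92 in WT and 0.80 in *idd4* (SE 1.05). The sign in WT rests on replicate 2, since without it the difference was 0.73 and without replicate 1 it was -2.58. In *idd4* it rests on replicate 1, since without it the difference was -0.47 and without replicate 2 it was 2.07. Both *idd4* mock libraries were above both WT mock libraries, as were 9.05% of all modelled genes. Under NaCl the means were 137.3 in *idd4* and 28.2 in WT, a log2 difference of 2.54 (SE 1.05), but the values overlapped, because *idd4* replicate 2 lay below WT replicate 1.

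Of the 4 modelled genes, 1 (*TPS03*, lower) passed an adjusted p of 0.05 for NaCl in WT, against 2.40% of all modelled genes, and 1 (*TPS03*, lower) for NaCl in *idd4*, against 2.96%. With edgeR the count was also 1 (*TPS03*) in each genotype. With DESeq2 it was 2 in WT (*TPS03*, and *HPL1* higher) and 3 in *idd4* (*TPS03*, and *TPS04* and *HPL1* higher). With a replicate block it was 3 in each. Without the filter on low values it was 1 (*TPS03*) in WT and 0 in *idd4*. Under NaCl 2 of the 4 (*TPS04* and *HPL1*) had both libraries above both mock libraries in each genotype, as did 42.5% of all genes in WT and 40.2% in *idd4*, and 1 (*TPS03*) had both below, as did 11.9% and 12.6%. By direction, the share of all genes called was 1.85% higher and 0.550% lower in WT and 2.08% higher and 0.880% lower in *idd4*. Nothing is read from these counts, because the genes were chosen with these contrasts known. For the genotype contrasts and the interaction 0 genes of the whole table passed with limma (percent called 0), at an unadjusted p under 0.05 the numbers were 274 without NaCl, 532 under NaCl and 203 for the interaction, and edgeR also called 0 while DESeq2 called 3 without NaCl and 0 in the others. The interaction, the NaCl difference in *idd4* minus that in WT, was 1.51 (SE 0.70) for *TPS03*, 0.21 (SE 2.28) for *TPS04*, 0.10 (SE 0.86) for *HPL1* and 1.72 (SE 1.48) for *CHAT*. Without 1 library it ran from 0.74 (without WT NaCl replicate 2) to 2.27 (without WT NaCl replicate 1) for *TPS03*, from -2.25 to 2.67 for *TPS04*, from -0.70 to 0.89 for *HPL1* and from 0.07 to 3.38 for *CHAT*, so that its sign was not fixed for *TPS04* and *HPL1*. The median of the 4 NaCl differences, of genes chosen with these contrasts known, was 0.77 in WT and 1.68 in *idd4*. Over all modelled genes the median was 0.25 in each genotype. Relative to that median gene, the NaCl differences in WT were -6.62 for *TPS03*, 5.56 for *TPS04*, 2.22 for *HPL1* and -1.17 for *CHAT*, and in *idd4* they were -5.11, 5.78, 2.32 and 0.55 in the same order. A scaling that removes this shift of the median changed the calls over all genes in WT from 404 higher and 120 lower to 243 and 240, and in *idd4* from 454 and 192 to 239 and 323.

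*TPS04*, *HPL1* and *CHAT* were split between the replicates of the NaCl groups in both genotypes. *TPS03* was at 5 fragments against 1 in WT NaCl and differed by 0.09 on the log2 scale between the *idd4* NaCl replicates. Replicate 1 was above replicate 2 in WT NaCl for 4 of 4, as for 53.8% of all modelled genes, and in *idd4* NaCl for 4 of 4, as for 63.2%, and by at least 1 on the log2 scale for 4 and 3 of them. Among all modelled genes, 7.83% reached that margin in WT NaCl and 10.5% in *idd4* NaCl. In the mock groups 1 and 0 of the 4 reached it, against 6.10% of genes in WT and 5.34% in *idd4*. The median margin of the 4 was 2.45 in WT NaCl and 2.00 in *idd4* NaCl, whereas it was -0.66 in WT mock and 0.20 in *idd4* mock. Nothing is read from these counts and margins, because the 4 genes were chosen with the values of these libraries known. A list of 11 jasmonate response genes and regulators of volatile synthesis was also chosen with earlier results of these data known. In it 7 of 11 reached the margin in each NaCl group. The jasmonate receptor gene *COI1* differed by -0.06 and -0.01 and the transcription factor gene *MYC4* by -0.05 and 0.23 between replicates in WT and *idd4* NaCl. The summed level of the 11 was 46047 in WT NaCl replicate 1 and 13194 in replicate 2, and 59480 and 17975 in *idd4* NaCl, against 4704 to 5580 in the mock libraries. Most of that sum under NaCl came from *VSP1* and *VSP2*, and the other 9 genes summed to 7684 and 4144 in WT NaCl and 8766 and 4362 in *idd4* NaCl, against 3316 to 4353 in the mock libraries. *JAZ10*, a jasmonate-responsive repressor picked here after its values were seen, stood at 289.2 and 10.9 in WT NaCl and 342.6 and 10.9 in *idd4* NaCl, against 3.20 to 12.5 without NaCl. The part of jasmonate-responsive transcription in the levels of *TPS04*, *HPL1* and *CHAT* was not tested. The sample titles carry the number 1 or 2 in every group, and serial numbers of all replicate 1 libraries come before those of replicate 2. No source says whether that number marks a shared batch or harvest.

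**Figure D2:**
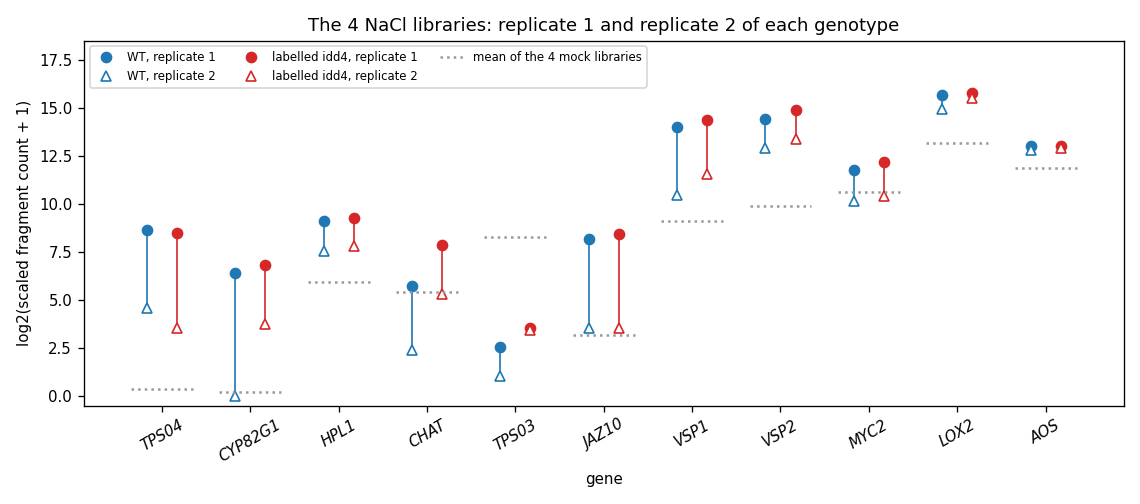
Level of 11 genes in the 4 NaCl libraries, as log2(scaled fragment count + 1), with circles for replicate 1, open triangles for replicate 2 and dotted lines for the mean of the 4 mock libraries. In both genotypes replicate 1 is above replicate 2 for *TPS04*, *CYP82G1*, *HPL1*, *CHAT*, *JAZ10*, *VSP1*, *VSP2* and *MYC2*, with *TPS04* at 397.2 against 22.8 scaled fragments in WT, while *AOS* differs little between replicates.

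Per kb of transcript, which allows genes to be set side by side, the mean level in WT mock was 120.9 for *TPS03*, 33.3 for *HPL1*, 19.9 for *CHAT* and 0.34 for *TPS04*. In *idd4* mock the order was *TPS03* at 134.5, *CHAT* at 35.5, *HPL1* at 33.8 and *TPS04* at 0, with the libraries of *CHAT* and *HPL1* overlapping. In WT NaCl *HPL1* led at 200.3, ahead of *TPS04* at 71.8, *CHAT* at 17.7 and *TPS03* at 1.23. In *idd4* NaCl *HPL1* stood at 227.3, *CHAT* at 86.2, *TPS04* at 62.9 and *TPS03* at 4.21. Neighbours in the mock orders overlapped only for *HPL1* and *CHAT*, and neighbours in the NaCl orders overlapped in every pair but *CHAT* and *TPS03* in WT. By mean level per kb, *TPS03* was first of the 4 without NaCl and last under NaCl in both genotypes.

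The gene with the profile most like that of *TPS03* over the 8 libraries was the cytochrome P450 gene *CYP71B22*, by root mean square difference of centred log2 levels of 0.82 among 19429 genes with a mean of at least 10. It stood between 76.0 and 100.7 in the mock libraries and between 0 and 3.59 in the NaCl libraries. AT1G22690 (1.05) and the defensin gene *PDF1.3* (1.17) came next. For *CHAT* the nearest were the glutathione transferase gene *GSTF3* (0.59), the nicotianamine synthase gene *NAS3* (0.62) and *GH3.1* (0.68), an amido synthetase gene of auxin metabolism. *GSTF3* had 60.99 in *idd4* NaCl replicate 1 and 4.34 in WT NaCl replicate 2, the same highest and lowest libraries as *CHAT*.

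The other enzymes around the 7 genes were covered by 7 lists of 77 genes, of which 67 were modelled. These lists and the marker lists below were also chosen with earlier results of these data known. Their counts and p-values are therefore a description, and no enrichment is read from them. In WT 5 of the 67 rose under NaCl, where 1.85% of all genes did, and in *idd4* 6, where 2.08% did, and 0 fell (limma, 14 and 16 at an unadjusted p under 0.05). The median difference of the 67 was 0.16 in WT and 0.33 in *idd4*, close to the 0.25 of all genes. With DESeq2 7 rose and 3 fell in WT, and edgeR called 3 and 2 there and 2 and 0 in *idd4*. With a scaling that centres the median gene, limma called *MK* and AT3G29410 lower in WT. For genotype and for the interaction 0 of the 67 passed with limma, edgeR or DESeq2, and with limma 1, 0 and 0 had an unadjusted p under 0.05 without NaCl, under NaCl and for the interaction.

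Of 26 further terpene synthase genes 18 were modelled. AT1G70080, which RefSeq places in the terpenoid cyclase superfamily, was the only one to pass with limma on the deposited signal. WT had 0 and 0 without NaCl and 21.0 and 9.77 with it, and *idd4* had 0 and 0.80 without NaCl and 52.0 and 13.2 with it. All NaCl libraries were above all mock libraries, at 30 against 0 fragments in WT and 46 against 1 in *idd4*. AT1G70080 rose by 3.94 in WT (SE 0.79, adjusted p = 0.0410, limma) and 4.35 in *idd4* (SE 0.79, adjusted p = 0.0278). In WT its NaCl mean was 4.97-fold above the floor of 3 fragments per mock library, a ratio without the counting error of the NaCl libraries. It passed in 2 of 8 fits without 1 library in WT and in 3 of 8 in *idd4*. The highest of the family were AT3G25820 and AT3G25830, which RefSeq both names *TPS-CIN* for cineole synthesis. Their annotated transcripts are 100% identical over the 2660 aligned bases, so that reads from that stretch cannot be told apart. AT3G25830 stood at 555.4 and 555.0 in WT without NaCl and at 381.2 and 164.0 with it, and in *idd4* at 560.3 and 484.5 without NaCl and at 561.5 and 194.7 with it. It did not pass (-1.15, adjusted p = 0.229 in WT, and -0.65, adjusted p = 0.46 in *idd4*, limma). *TPS12* did not pass either, at 1.34 in WT and 0.82 in *idd4*. With DESeq2 AT3G29410 and AT3G25830 were called lower in WT, and edgeR called AT3G29410 lower there and not AT1G70080. Limma with a scaling that centres the median gene called AT3G29410 lower in WT as well as AT1G70080 higher. The median over the 18 was 0.0011 in WT and 0.44 in *idd4*.

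**Figure D3:**
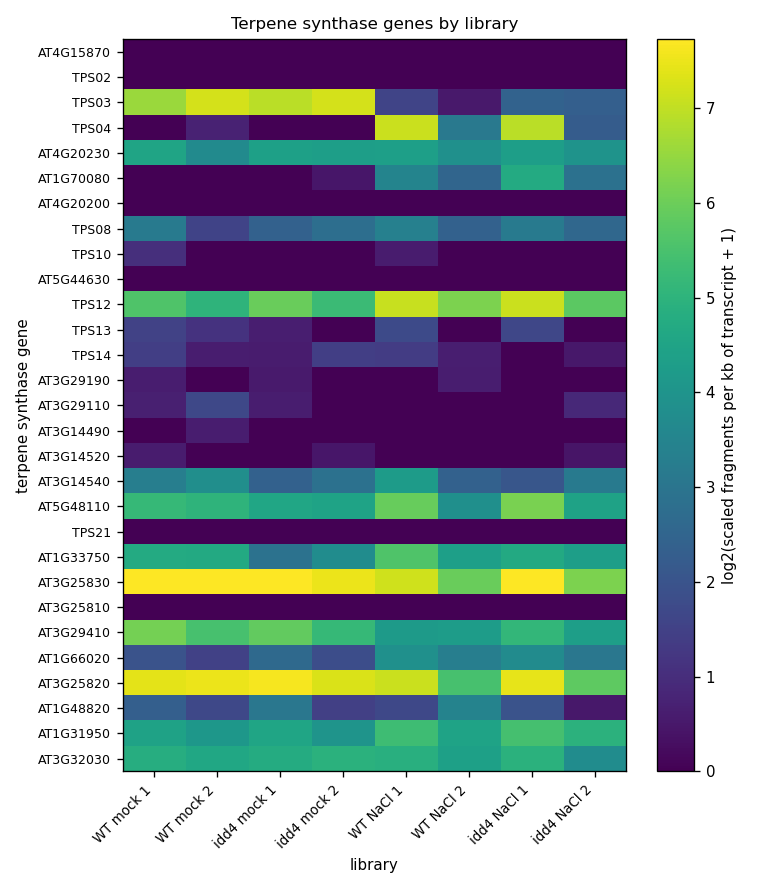
Heat map of the terpene synthase genes with *TPS* numbers in the 8 libraries, coloured by log2(scaled fragments per kb of transcript + 1), with genes named by symbol or by identifier. *CPS* and *KS*, which the list of further terpene synthase genes also holds, are not shown. *TPS03* is high in the 4 mock libraries, *TPS04* and AT1G70080 in the NaCl libraries, *TPS02* and *TPS21* are at 0 throughout, and AT3G25820 and AT3G25830 are high in most libraries.

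No gene that supplies prenyl diphosphates passed with limma on the deposited signal. In the MEP pathway 0 of 7 genes passed in either direction, also with edgeR and DESeq2, with a median of -0.0014 in WT and -0.21 in *idd4*. *DXS*, which makes the first intermediate of that pathway, stood at 2247 and 2422 in WT mock and 2482 and 2598 in WT NaCl, a difference of 0.12, and of -0.21 in *idd4*. In the mevalonate pathway 0 of 10 passed with limma, while edgeR and DESeq2 called 1 lower in WT, the mevalonate kinase gene *MK*. Limma with a scaling that centres the median gene also called *MK* lower in WT. *HMG1*, an HMG-CoA reductase gene, differed by -0.02 in WT and 0.10 in *idd4*. Of 5 prenyl diphosphate synthase genes 0 passed with any of these tools, with *GGPPS11*, the main plastid geranylgeranyl diphosphate synthase, at -0.09 and -0.04. Of 3 modelled P450 genes that oxidise terpenes 0 passed with any of them, among which was *CYP76C1*, a linalool oxidase gene, at -0.37 and -0.43. The numbers at an unadjusted p under 0.05 with limma were 0 and 1 for the MEP list, 1 and 0 for the mevalonate list, 0 and 0 for the prenyl list and 0 and 2 for the P450 list, in WT and *idd4*.

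In the branch from linolenate to hexenals and jasmonate, 2 of 13 modelled genes rose in WT and 3 in *idd4* (limma). The share of all genes that rose was 1.85% in WT and 2.08% in *idd4*. With edgeR only *LOX2* was called in each genotype, and with DESeq2 *ADH1*, *LOX2* and *AOS* were called higher in each. *LOX2*, the plastid lipoxygenase whose hydroperoxides feed both branches, stood at 11012 and 9846 in WT mock and 7417 and 9722 in *idd4* mock. Under NaCl it stood at 51903 and 31750 in WT and 56368 and 47085 in *idd4*. In WT *LOX2* rose by 1.96 (SE 0.32, adjusted p = 0.0190, limma), and by 2.60 in *idd4* (SE 0.32, adjusted p = 0.00724). *AOS* ran from 3440 to 4113 in the mock libraries and from 7078 to 8344 under NaCl, and its rise was 1.13 in WT (adjusted p = 0.0213, limma) against 1.00 in *idd4* (adjusted p = 0.0304), but with a scaling that centres the median gene it did not pass in either genotype (0.89 and 0.76). *ADH1*, an alcohol dehydrogenase gene also known from hypoxia, rose in *idd4* by 2.86 (adjusted p = 0.0278) and stood at 2.34 in WT (adjusted p = 0.0537), and the difference between the genotypes was 0.52 (interaction, adjusted p = 1.00, limma). The desaturase genes *FAD7* and *FAD8*, which make linolenate, differed by 0.08 and -0.02 in WT and did not pass. *LOX1* also did not pass, at 0.31 and 0.45.

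Of the 11 jasmonate and regulator genes 2 rose in each genotype (limma), where 1.85% of all genes did in WT and 2.08% in *idd4*. With edgeR *OPR3* was not called in *idd4*, and with DESeq2 *VSP1* was also called higher in each. *VSP2*, a vegetative storage protein gene induced by jasmonate, rose by 4.06 (SE 0.54, adjusted p = 0.00949, limma) in WT, and by 3.92 in *idd4* (SE 0.54, adjusted p = 0.0112). *OPR3*, a jasmonate synthesis gene, rose by 1.51 (adjusted p = 0.0305) and 1.41 (adjusted p = 0.0349). *VSP1* reached 16487 and 20848 in replicate 1 of the NaCl groups against 1404 and 3040 in replicate 2, and did not pass (3.29 and 3.71). *MYC2*, the transcription factor of the jasmonate response, stood at 3516 and 1147 in WT NaCl and 1358 and 2176 in WT mock, with NaCl differences of 0.22 and 0.77 that did not pass. None of the calls in these 2 lists held in all 8 fits that each left out 1 library. Without 1 library *LOX2* passed in 5 of 8 fits in WT and 7 of 8 in *idd4*, *VSP2* in 6 and 5, *OPR3* in 5 and 3, *AOS* in 4 and 3, and *ADH1* in 2 in *idd4*.

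**Figure D4:**
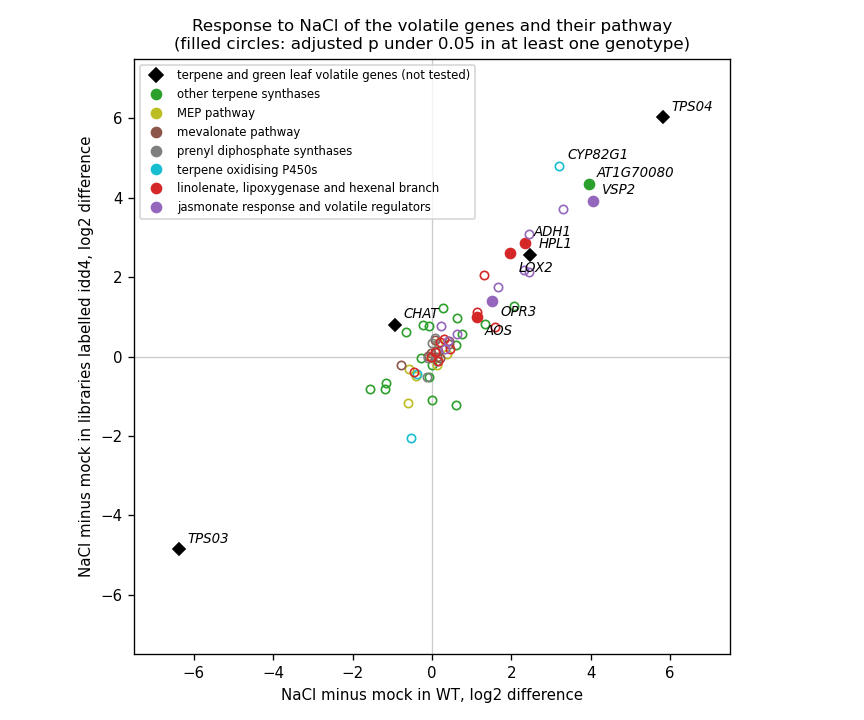
Log2 difference between NaCl and mock in WT (horizontal axis) and *idd4* (vertical axis) for the 4 modelled volatile genes (diamonds) and the 67 pathway genes (circles, filled where the limma test passed in at least 1 genotype). The axes share no library. *TPS04* sits at 5.82 and 6.03, *TPS03* at -6.37 and -4.86, and *CHAT* at -0.92 and 0.80, the only one of the 4 with opposite signs.

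The summed level of 8 leaf markers ran from 627317 to 847897 in the mock libraries and from 259085 to 473269 in the NaCl libraries. In *idd4* 3 of the 8 (*RBCS2B*, *PSAF* and *CA1*) fell, where 0.880% of all genes did. They fell by 1.96, 1.39 and 1.57 on the log2 scale (adjusted p = 0.0400, 0.0470 and 0.0499, limma). With a scaling that centres the median gene 0 of the 8 passed there, edgeR called 2 lower (*RBCS2B* and *PSAF*) and DESeq2 6. Without 1 library each of the 3 passed in 1 of 8 fits, the one without *idd4* NaCl replicate 2, and the differences ran from -2.56 to -1.37 for *RBCS2B*, from -1.52 to -1.26 for *PSAF* and from -2.07 to -1.07 for *CA1*. In WT 0 of the 8 passed with limma or edgeR, with 5 at an unadjusted p under 0.05, and 6 were called lower with DESeq2. That of 10 root markers ran from 1654 to 2525 without NaCl and from 1256 to 1955 under NaCl, with 0 of 10 past the limma test (4 in WT and 3 in *idd4* at an unadjusted p under 0.05). DESeq2 called 2 of them lower in WT and 1 in *idd4*, and edgeR 1 and 0. Limma with a scaling that centres the median gene called 1, *COBL9*, lower in WT and 0 in *idd4*. Within the root list *WOX5* and *ESB1* were low without NaCl. *WOX5* stood at 0.96 in *idd4* mock replicate 1, and *ESB1* at 4.28 in WT mock replicate 1. Under NaCl *WOX5* stood higher, at 56.0 and 14.1 in WT and 19.7 and 34.1 in *idd4*. In WT 3 of the 10 root markers had both NaCl libraries above both mock libraries and 5 had both below. Of all genes 42.5% and 11.9% did. In *idd4* the numbers were 3 and 2, against 40.2% and 12.6% of all genes. The part of either list in the lower *TPS03* level and the higher *TPS04* and *HPL1* levels under NaCl was not tested.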

How the data were processed

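RNA of whole seedlings was sequenced in 8 libraries, 2 for each of 4 groups taken from the sample labels. Per the labels and the methods of the study, the authors checked reads with FastQC, used Trimmomatic 0.32 for trimming, TopHat for alignment to TAIR10 and Cufflinks for gene structures. The deposited values are an expression signal made by the authors, a fragment count times 1 factor per library, although the table is named for FPKM, the unit the tests had been planned for. At least 99.88% of the values of a library lay within 0.05 of whole multiples of 1 step. Whole fragments were recovered from these steps, 5882615 to 13557480 per library. Handling of strand and of reads shared by near-identical genes is not given in the sources used here.

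Genes averaging 1 or more over the libraries (21820) entered a limma fit of the deposited signal on the log2(value + 1) scale, which used 1 coefficient per group and a variance trend (limma 3.58.1, R 4.3.3). Two-sided p-values were adjusted by Benjamini-Hochberg over all genes, with 0.05 as the threshold. A pseudocount understates changes of low genes. edgeR 4.0.16 and DESeq2 1.42.0 on whole fragments, other pseudocounts, filters and scalings, a replicate block and leaving out each library were alternatives. The script was tested on simulated data. The 7 genes and all lists were chosen with earlier results of these data known. Named are the 7 genes, in each list the genes that passed and up to 3 others of highest mean, the 3 nearest profiles of *TPS03* and *CHAT*, and *IDD4*. *JAZ10* was added after its values were seen. Of 27207 identifiers, 26558 matched TAIR10.1, from which positions, lengths and promoters were read.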

Additional observations from a re-analysis of the deposited data

How the results depend on the processing

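With 2 libraries a group, calls depended on the settings. Over all genes, the calls for NaCl in WT were 524, against 97 without a filter on low values, 1093 with DESeq2, 84 without a variance trend and 55 to 698 without 1 library (lowest without WT mock replicate 2, and moved by over 1.5 times without any WT library or *idd4* mock replicate 2). For NaCl in *idd4* they were 646, against 66 without the filter, 1177 with DESeq2, 104 without the trend, 111 with only the 4 libraries compared and 71 to 804 without 1 library (lowest without *idd4* mock replicate 1, and moved by over 1.5 times without any mock library or *idd4* NaCl replicate 1). The 5 pathway calls in WT became 0 without the filter, 10 with DESeq2, 0 without the trend and 0 to 5 without 1 library (0 without either WT mock library). The 6 in *idd4* became 0 without the filter, 2 with edgeR, 1 without the trend, 3 with only the 4 libraries compared and 0 to 8 without 1 library (0 without *idd4* mock replicate 1). The 0 calls for genotype became 21 without the filter and 3 with DESeq2 without NaCl and 30 without the filter under NaCl, and those for the interaction 44 without the filter. The cause was not tested.

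Nothing states that replicate numbers pair the libraries. Between groups, same-numbered libraries deviated together with correlations from 0.04 (WT mock and WT NaCl) to 0.40 (WT NaCl and *idd4* NaCl). With a replicate block the calls over all genes were 1564 for NaCl in WT, 1728 in *idd4* and 1 for genotype without NaCl, and the pathway calls in WT were 11. The *TPS03* difference in WT ran from -6.84 to -5.25 over the settings and from -7.13 to -5.60 without 1 library. In *idd4* it ran from -5.24 to -4.44 and from -5.02 to -4.70, and it did not pass without the filter on low values. Values under 10 rest on few fragments, which limits *TPS03* under NaCl and *TPS04* without it.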
